A study of Mus musculus with 8 samples.

Results

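The p53 target genes examined here are 33 genes chosen by name as targets or close partners of the transcription factor p53, with Trp53, which encodes it, among them. They were grouped by function into feedback on p53, cell cycle arrest, cell death, DNA repair, and metabolism with stress. Of the 33 genes, 31 had a named probe and 28 passed the detection filter, out of 9430 named genes that passed it in the whole data set. The cells were mouse embryonic fibroblasts (MEFs), taken from C57BL/6 embryos at day 13.5, and all 4 clones came from embryos of that age. WT clones 1 and 16 carried the wild-type gene, and clones 2 and 4 carried the E2F3 L430Q mutation (E2F3 LQ below), a leucine-to-glutamine change in the part of E2F3 that binds the retinoblastoma protein Rb. The study's methods describe the mutant cells as homozygous knock-in MEFs from an intercross of heterozygous mice, from which a neomycin cassette had been removed by crossing to Mox2Cre mice. Each clone was hybridised once while proliferating in 10% FBS and once after 72 h of starvation, so that each of the 4 groups held 2 arrays. The labels give the starved cells medium without FBS, while the study's methods describe low-serum medium for a separate assay of DNA synthesis. A clone is a single culture, and p-values therefore measure only the spread between these cultures.

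The p53 protein is a transcription factor that is kept at a low level by the ubiquitin ligase Mdm2 and becomes stable after DNA damage, oncogene activity or loss of nutrients. It binds DNA as a tetramer at response elements made of repeated decamers, and its targets can stop the cell cycle, remove the cell by apoptosis, repair DNA or alter metabolism, while several of them feed back on p53 itself. In fibroblast cultures the pathway is best known for limiting growth, together with p19Arf, a product of Cdkn2a that inhibits Mdm2, and it is linked to the Rb and E2F pathway because E2F proteins can activate the Arf promoter.

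Levels are given as log2 of the normalized intensity of a gene's brightest passing probe. The median intensity of an array before normalization lay between 108.4 and 127.3, and 12141 to 12420 probes were detected. Among the proliferating arrays, that of E2F3 LQ clone 2 was unlike the rest: 685 of its genes differed over 2-fold from what the other 3 averaged, while 103 to 223 did on each of those. Fibroblast markers were present, with 9 of 12 detected on all 8 arrays and a summed level of 24396 to 26569 in proliferating and 28760 to 34153 in starved cells. The 10 macrophage markers tested of 13 were also partly present, with a summed level of 2122 to 4622 in proliferating WT, 653 to 2742 in proliferating E2F3 LQ, 1950 to 2043 in starved WT and 798 to 1355 in starved E2F3 LQ cells, while Cd68 and Csf1r had no named probe and Ptprc did not pass the filter. In these bulk samples fewer cells of a type and less RNA per cell cannot be told apart. Of the 10 macrophage markers limma called 5 lower after starvation over both genotypes, and of the 3 muscle markers tested 2, against 11.5% of all features. The muscle sum was 424 to 1361 in proliferating and 90.6 to 123 in starved cells. The macrophage markers did not fall alike in every clone. After starvation 1 of the 10 was higher in WT clone 1, 5 in WT clone 16, 0 in E2F3 LQ clone 2 and 6 in E2F3 LQ clone 4. Few endothelial and epithelial markers were detected: 2 and 0 on all 8 arrays, with Pecam1, Cdh5 and Krt5 not passing the filter and an endothelial sum of 443 to 529 in proliferating and 343 to 407 in starved cells. Of 15 proliferation genes tested, all had a negative difference after starvation and 12 were called lower, with a summed level of 3992 to 6436 in proliferating and 2044 to 2949 in starved cells. The part of these shifts in the results below was not tested.

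Many p53 target genes were higher after starvation in the average of both genotypes. Averaged over both genotypes, limma called 12 of the 28 members higher and 2 lower after starvation at a Benjamini-Hochberg adjusted p under 0.05. Over all 10214 features tested, 10.9% were called higher and 11.5% lower. The log2 fold change was above 0 in 23 of the 28 members, against 50.1% of all features, and its median was 0.48 in the members and 0.00 over all features. All 4 starved arrays lay above all 4 proliferating arrays for 14 members and 1532 of all features, and below them for 2 members and 1588 of all features (15.5%). By function, 2 of 4 feedback genes, 1 of 6 arrest genes, 5 of 10 death genes, 3 of 5 repair genes and 1 of 3 metabolism genes rose, while 1 arrest gene and 1 death gene fell. With the array medians subtracted in place of quantile normalization, a choice made after seeing the data that moved the median of all features by -0.13, limma called 4 members higher and 3 lower, and with median scaling 8 higher and 2 lower. The count also rested on single arrays. It fell without any of the WT or starved arrays and did not fall without either proliferating E2F3 LQ array. Without the proliferating WT clone 1 it was 8, without the starved WT clones 1 and 16 it was 5 and 7, and without the starved E2F3 LQ clones 2 and 4 it was 7 and 9. All features called fell along with it, from 2288 to 1123, 972, 941, 1116 and 1188 in the same order. With either WT clone left out whole, limma called 0 members, while 4 of all features were called without clone 1 and 121 without clone 16. Fas, Ei24, Phlda3, Ercc5 and Dram1 stayed called in all 8 fits that each left out 1 array, Ccng1 and Tnfrsf10b in 7, Trp53inp1 in 5, Ppm1d in 4, Ccng2 in 3, Aen, Polk and Rrm2b in 2 and Plk3 in 1. With the clone as a block 14 members were again called, but without Aen and Rrm2b. The plot of all members on all arrays shows the shift across the 4 starved arrays.

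**Figure D1:**
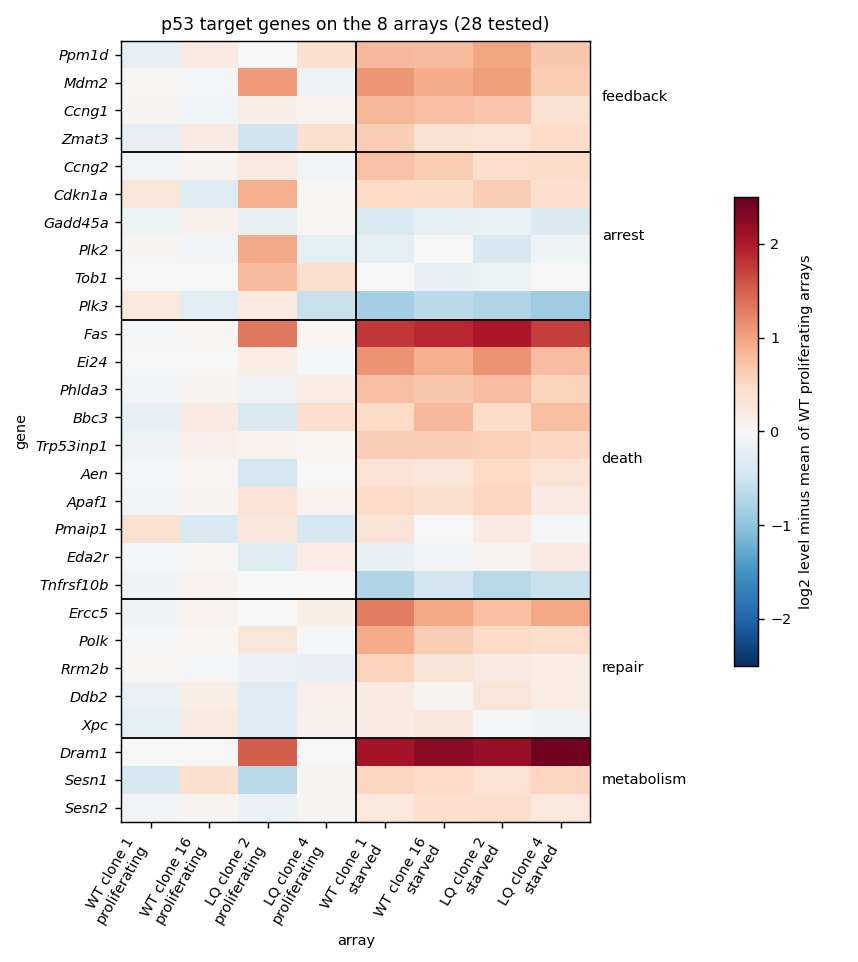
The 28 tested p53 target genes (rows, by function) on the 8 arrays (columns), as the log2 level minus the mean of the 2 proliferating WT arrays. Fas and Dram1 were the most raised on the 4 starved arrays, and proliferating E2F3 LQ clone 2 is the proliferating array with raised Mdm2, Cdkn1a, Plk2, Fas and Dram1. Tob1 was raised on both proliferating E2F3 LQ arrays, and more on that of clone 2.

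The plot of the starvation response by clone gives each culture's own difference. In WT clone 1 the median over the 28 members was 0.63, in WT clone 16 it was 0.37, in E2F3 LQ clone 2 it was 0.46 and in E2F3 LQ clone 4 it was 0.34. The response was positive for 22, 22, 21 and 23 members in the same order. Over all features it was positive for 50.6%, 47.6%, 53.6% and 48.2%, with medians of 0.01, -0.03, 0.04 and -0.02. Most members were thus higher after starvation in each clone, with WT clone 1 highest in the median.

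**Figure D2:**
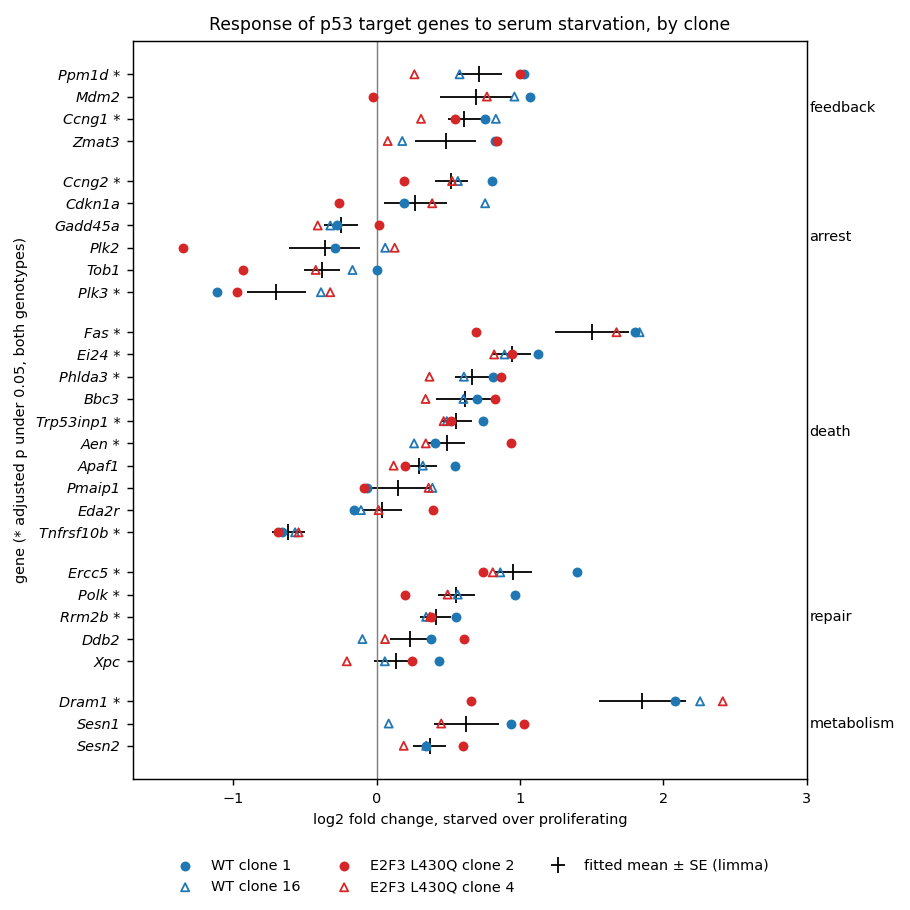
Starved minus proliferating log2 level of each p53 target gene in each clone (points), with limma's mean over both genotypes and its SE (black bars), where a star marks an adjusted p under 0.05. Dram1 and Fas lie farthest right, and their lowest point is E2F3 LQ clone 2.

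The promoters of 4 of the 11 members with a match to the p53 decamer, the repeat unit of p53 response elements, are shown as examples. The pattern searched is degenerate: purines, then C, then letters that are A or T, then G, then pyrimidines. As a pattern, though not in each match, it equals its own reverse complement, so that both strands are read at once. The windows run from 250 bases before to 50 after a RefSeq transcript start on GRCm38.p6, and capitals mark the decamer. Ppm1d (chr11:85311004-85311303, plus strand), Ei24 (chr9:36797285-36797584, minus strand) and Ccng1 (chr11:40755237-40755536, minus strand) were called higher after starvation, and Cdkn1a (chr17:29090729-29091028, plus strand) was not.
Ppm1d: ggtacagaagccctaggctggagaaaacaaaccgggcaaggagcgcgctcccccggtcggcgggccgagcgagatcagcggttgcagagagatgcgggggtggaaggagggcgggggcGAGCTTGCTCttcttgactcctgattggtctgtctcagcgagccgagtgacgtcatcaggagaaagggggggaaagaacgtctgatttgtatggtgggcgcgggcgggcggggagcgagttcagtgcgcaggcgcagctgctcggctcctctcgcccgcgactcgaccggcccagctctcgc
Ei24: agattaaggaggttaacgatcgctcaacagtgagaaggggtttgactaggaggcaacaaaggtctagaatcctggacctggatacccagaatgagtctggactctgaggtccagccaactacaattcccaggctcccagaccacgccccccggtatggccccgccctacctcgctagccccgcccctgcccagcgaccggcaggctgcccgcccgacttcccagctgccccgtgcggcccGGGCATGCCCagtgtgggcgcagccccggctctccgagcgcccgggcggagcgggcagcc
Ccng1: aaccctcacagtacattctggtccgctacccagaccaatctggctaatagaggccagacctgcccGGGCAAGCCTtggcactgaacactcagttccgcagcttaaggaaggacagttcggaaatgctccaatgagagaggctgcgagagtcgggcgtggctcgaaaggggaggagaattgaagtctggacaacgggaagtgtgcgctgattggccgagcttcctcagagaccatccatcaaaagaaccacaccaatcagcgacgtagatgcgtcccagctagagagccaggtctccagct
Cdkn1a: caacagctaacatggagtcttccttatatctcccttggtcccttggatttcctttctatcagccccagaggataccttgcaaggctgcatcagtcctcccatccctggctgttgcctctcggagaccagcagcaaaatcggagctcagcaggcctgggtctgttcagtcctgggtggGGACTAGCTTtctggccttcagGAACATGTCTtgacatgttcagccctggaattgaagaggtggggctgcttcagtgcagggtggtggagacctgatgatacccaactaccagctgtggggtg
This Cdkn1a window holds 2 decamers, that of its other listed start (chr17:29093519-29093818) 0, and each of the others shown 1. Of the 33 members, 25 matched a window, and 11 of those (44.0%) held a decamer, against 9.55% of the 27025 genes with a window. Among tested members with a window, the decamer was found in 5 of 10 called higher (Aen, Ccng1, Ei24, Polk and Ppm1d) and in 4 of 11 that were not (Cdkn1a, Gadd45a, Mdm2 and Sesn1). A match describes these letters only, and binding was not measured.

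Among the feedback genes, Mdm2, which marks p53 for degradation, was at 11.32 and 11.26 in proliferating WT clones 1 and 16 and at 12.39 and 12.22 after starvation. In E2F3 LQ clones 2 and 4 it was at 12.35 and 11.17 while proliferating and at 12.33 and 11.94 when starved. Starved cells were high in both genotypes, and the proliferating clone 2 array was already as high as the starved ones, so the groups overlapped. The log2 fold change of Mdm2 was 0.69 ± 0.25 (SE) over both genotypes, which did not pass (adjusted p = 0.09). It was 1.01 ± 0.36 in WT (adjusted p = 0.127) and 0.37 ± 0.36 in E2F3 LQ (adjusted p = 0.572). Trp53 itself, which encodes p53, was not analysed here because no probe was named for it. Mdm4, a partner of Mdm2, had 3 probes, and none passed the filter.

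Ppm1d encodes the phosphatase Wip1, which turns off p53 and its upstream kinases. Its level rose from 7.75 and 8.16 to 8.77 and 8.74 in WT clones 1 and 16 and from 7.94 and 8.36 to 8.95 and 8.63 in E2F3 LQ clones 2 and 4. Every starved array lay above every proliferating one, and the log2 fold change was 0.72 ± 0.16 (adjusted p = 0.0189). Cyclin G1 (Ccng1), which recruits a phosphatase to Mdm2, was at 12.07, 11.92, 12.13 and 12.07 in proliferating clones 1, 16, 2 and 4, and at 12.83, 12.75, 12.68 and 12.38 in the starved ones. The groups did not overlap, and its brightest probe rose by 0.61 ± 0.11 (adjusted p = 0.0109). The other 2 passing probes of Ccng1 went the other way, at -0.50 ± 0.12 and -0.26 ± 0.12, the first of them called lower in a fit of every passing probe (adjusted p = 0.0278), so the direction of Ccng1 depended on the probe. The mean of its probes was at -0.05. Zmat3, a p53-induced RNA-binding protein, ranged from 9.17 to 10.05 in proliferating and from 10.01 to 10.28 in starved cells, a difference of 0.48 ± 0.21 that was not called (adjusted p = 0.143).

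The arrest genes did not move together. Cdkn1a encodes p21, the inhibitor of cyclin-dependent kinases through which p53 arrests cells. It was at 12.49, 11.89, 13.07 and 12.22 in proliferating clones 1, 16, 2 and 4 and at 12.69, 12.65, 12.81 and 12.60 in the starved ones. Proliferating E2F3 LQ clone 2 had the highest level of all 8 arrays. Its log2 fold change was 0.27 ± 0.22 over both genotypes (adjusted p = 0.41), with a 95% interval from -0.25 to 0.78, and was 0.48 ± 0.31 in WT (adjusted p = 0.375) and 0.06 ± 0.31 in E2F3 LQ (adjusted p = 0.932). All 3 passing probes of Cdkn1a had a positive difference, and 1 of them, at 0.52 ± 0.15, was called higher (adjusted p = 0.047).

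Cyclin G2 (Ccng2), a cyclin found in resting cells, was the arrest gene that rose. It was at 6.32, 6.45, 6.64 and 6.31 in proliferating clones 1, 16, 2 and 4 and at 7.13, 7.02, 6.82 and 6.84 when starved. The groups did not overlap, and the log2 fold change was 0.52 ± 0.12 (adjusted p = 0.0202). Plk3, a stress-responsive polo-like kinase, fell from 7.92, 7.41, 7.89 and 7.10 to 6.81, 7.02, 6.92 and 6.78 in the same order. Clones 1 and 2 fell most, and the log2 fold change was -0.70 ± 0.20 (adjusted p = 0.0478), a call that remained in 1 of the 8 fits that each left out 1 array. It was also lost without background correction, with an offset of 50, with cyclic loess, with the authors' normalized values, with no detection filter and by the methods' t-test. Tob1, an antiproliferative protein, was at -0.38 ± 0.13 over both genotypes (adjusted p = 0.07) and at -0.68 ± 0.18 in E2F3 LQ cells (adjusted p = 0.079). Gadd45a, a stress sensor, ranged from 9.39 to 9.67 in proliferating and from 9.19 to 9.41 in starved cells. Plk2, another polo-like kinase, ranged from 8.46 to 9.63 and from 8.28 to 8.68, and neither gene was called. Btg2, an antiproliferative cofactor, had a probe that did not pass the filter.

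Among the death genes, Fas showed the largest change. Fas encodes the death receptor for Fas ligand. Its level was 9.09, 9.18, 10.46 and 9.19 in proliferating clones 1, 16, 2 and 4 and 10.90, 11.02, 11.16 and 10.86 in the starved ones. The starved arrays lay close together above all proliferating arrays, with proliferating E2F3 LQ clone 2 between. The log2 fold change was 1.50 ± 0.26, a 2.83-fold rise (adjusted p = 0.00873), with 1.82 ± 0.37 in WT (adjusted p = 0.0319) and 1.19 ± 0.37 in E2F3 LQ (adjusted p = 0.113). Tnfrsf10b, the mouse receptor for the death ligand TRAIL, went the other way. It fell from 8.88, 9.04, 8.96 and 8.95 to 8.22, 8.47, 8.27 and 8.40. All 4 clones fell by a like amount, and the log2 fold change was -0.62 ± 0.11 (adjusted p = 0.0103). The other 3 passing probes of Tnfrsf10b were at -0.09, -0.20 and 0.29, none of them called.

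Ei24, a p53-induced protein of the endoplasmic reticulum, was at 8.88, 8.88, 9.07 and 8.83 in proliferating clones 1, 16, 2 and 4 and at 10.01, 9.77, 10.01 and 9.65 when starved. The gap between the conditions was larger than the spread between clones in either. The log2 fold change was 0.95 ± 0.13 (adjusted p = 0.00448), with 1.01 ± 0.19 in WT (adjusted p = 0.0234) and 0.88 ± 0.19 in E2F3 LQ (adjusted p = 0.046). Phlda3, which restrains Akt at the membrane, rose from between 11.14 and 11.43 to between 11.80 and 12.01, by 0.66 ± 0.12 (adjusted p = 0.00963). Trp53inp1, a nuclear cofactor of p53 that also acts in autophagy, rose from between 9.97 and 10.23 to between 10.61 and 10.72, by 0.55 ± 0.11 (adjusted p = 0.0128). Its dimmer probe rose by 1.17 ± 0.17.

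Aen, a p53-induced nuclease, rose by 0.49 ± 0.13 (adjusted p = 0.036), from between 5.01 and 5.50 to between 5.76 and 5.95, and its other 2 probes were at 0.20 and -0.19. The genes for the BH3-only activators of apoptosis were not called. Bbc3, which encodes Puma, ranged from 8.33 to 9.12 in proliferating and from 9.16 to 9.51 in starved cells, without overlap, at 0.62 ± 0.21 (adjusted p = 0.0698). These are values of its brightest probe. Of the 3 passing probes of Bbc3, 1 was higher and 2 were lower after starvation, none of them called. Pmaip1, which encodes Noxa, ranged from 6.21 to 7.02 and from 6.58 to 6.95, with 2 clones up and 2 down. Apaf1, the scaffold of the apoptosome, was at 0.30 ± 0.12 (adjusted p = 0.129), ranging from 9.16 to 9.56 and from 9.44 to 9.75. Eda2r, a receptor of the TNF family, was detected on 4 of the 8 arrays and ranged from 4.40 to 4.92 over both conditions. Bax, the pore-forming effector of apoptosis, was not analysed here for lack of a named probe, and Perp, a junction protein, had a probe that did not pass the filter.

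All 5 repair genes had a positive difference and 3 rose. Ercc5, the endonuclease Xpg of nucleotide excision repair, was at 8.91, 9.11, 9.03 and 9.16 in proliferating clones 1, 16, 2 and 4 and at 10.31, 9.97, 9.77 and 9.97 when starved. The groups were far apart, and the log2 fold change was 0.95 ± 0.13, a 1.94-fold rise (adjusted p = 0.00378). Polk, a polymerase that copies past damaged bases, rose from between 7.15 and 7.50 to between 7.64 and 8.13, by 0.56 ± 0.13 (adjusted p = 0.0242). Rrm2b, the p53-inducible subunit of ribonucleotide reductase that supplies nucleotides for repair outside S phase, rose from between 6.66 and 6.87 to between 7.04 and 7.43, by 0.41 ± 0.11 (adjusted p = 0.0336). The damage recognition genes Ddb2, at 0.24 ± 0.14 (adjusted p = 0.275), and Xpc, at 0.13 ± 0.15 (adjusted p = 0.561), were not called. Ddb2 ranged from 5.80 to 6.28 in proliferating and from 6.18 to 6.41 in starved cells, and Xpc from 6.45 to 6.98 and from 6.66 to 7.04.

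Dram1, a lysosomal membrane protein through which p53 promotes autophagy, had the largest change of all 28 members. Its level was 8.37, 8.36, 9.88 and 8.36 in proliferating clones 1, 16, 2 and 4 and 10.45, 10.61, 10.54 and 10.78 when starved. Of the proliferating arrays 3 were nearly equal, and E2F3 LQ clone 2 lay well above them but below every starved array. The log2 fold change was 1.85 ± 0.30, a 3.61-fold rise (adjusted p = 0.00717), with 2.17 ± 0.43 in WT (adjusted p = 0.0289) and 1.54 ± 0.43 in E2F3 LQ (adjusted p = 0.0888). The sestrins, which restrain growth signalling through mTORC1, were higher without passing. Sesn1 ranged from 7.20 to 8.27 in proliferating and from 8.23 to 8.41 in starved cells, at 0.63 ± 0.23 (adjusted p = 0.0897). Sesn2 ranged from 6.64 to 6.88 and from 7.07 to 7.25, without overlap, at 0.37 ± 0.12 (adjusted p = 0.0593). Of the 2 passing probes of Sesn2, 1 was higher and 1 lower after starvation, neither called.

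**Figure D3:**
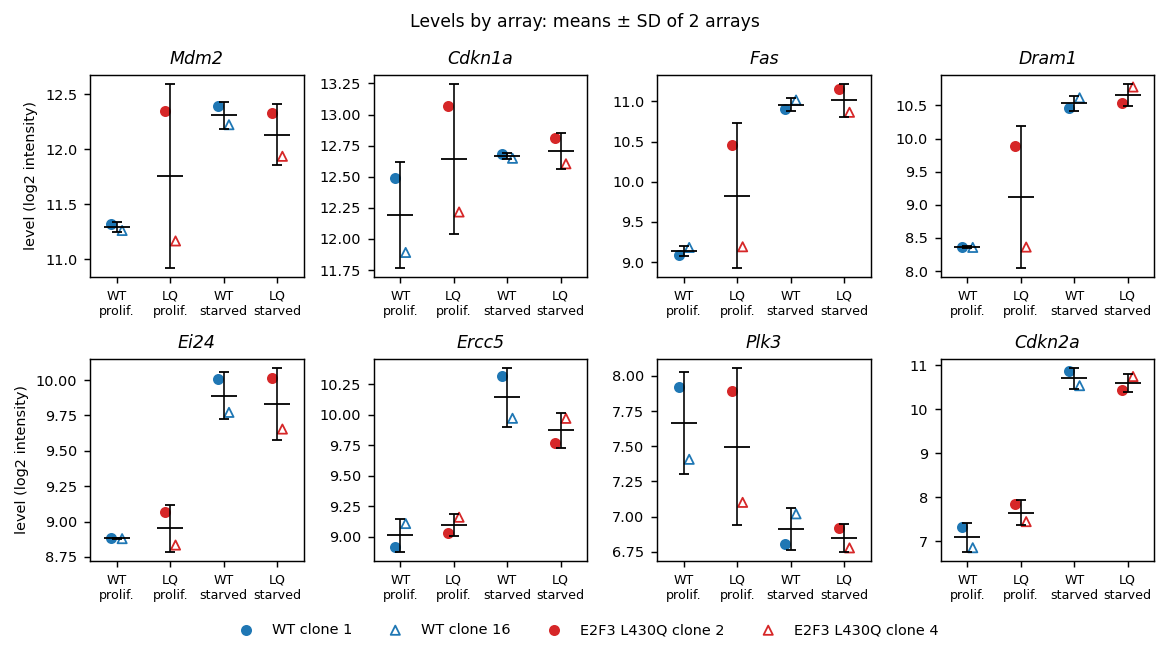
Log2 levels of 7 p53 target genes and of Cdkn2a on each array, by group (LQ, E2F3 LQ), with the mean and SD of the 2 arrays of a group. Each panel has its own scale. Fas and Dram1 were at 10.46 and 9.88 in proliferating E2F3 LQ clone 2, against 9.19 and 8.36 in clone 4.

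Within each genotype fewer members passed. In WT cells limma called 8 of 28 members higher and 0 lower after starvation (Ccng1, Ccng2, Dram1, Ei24, Ercc5, Fas, Phlda3 and Polk), while 3.87% of all features were higher and 4.30% lower, and the members' median was 0.49. The starved WT arrays lay above the proliferating ones for 19 members and below them for 4, against 30.3% and 32.2% of all features. With the clone as a block the count was 5. With any of the 4 WT arrays left out it was 0, without either proliferating E2F3 LQ array 13, and without either starved E2F3 LQ array 2, while all features called went from 834 to between 0 and 204, to 1843 and to 433. In E2F3 LQ cells 1 member, Ei24, was called higher and 0 lower, against 2.46% and 2.14% of all features, and the members' median was 0.37. The starved arrays lay above the proliferating ones for 16 members and below them for 3, against 24.9% and 24.8% of all features. With the clone as a block that count was 0. It was 4 without proliferating clone 2, 9 without proliferating clone 4 and 0 without any other single array, while all features called went from 470 to 947, 1240 and 22 to 251. At an unadjusted p under 0.05, 11 members were higher and 2 lower in E2F3 LQ cells, against 12.1% and 11.8% of all features, and in WT cells 13 were higher and 2 lower, against 12.6% and 13.7%.

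The genotypes' own differences can be set side by side for the members that had an unadjusted p under 0.05 in either. Ercc5 rose by 1.13 ± 0.18 in WT (adjusted p = 0.0165) and was at 0.78 ± 0.18 in E2F3 LQ (adjusted p = 0.0587). Phlda3 was at 0.71 ± 0.17 (adjusted p = 0.0478) and 0.62 ± 0.17 (adjusted p = 0.0844), and Ccng1 at 0.79 ± 0.16 (adjusted p = 0.0323) and 0.43 ± 0.16 (adjusted p = 0.166). Polk and Ccng2 passed in WT and not in E2F3 LQ, at 0.77 ± 0.18 (adjusted p = 0.0495) and 0.69 ± 0.16 (adjusted p = 0.0491), against 0.35 ± 0.18 and 0.36 ± 0.16 in E2F3 LQ. These genes thus had the same sign in both genotypes with the larger value in WT. Tnfrsf10b had like values, at -0.62 ± 0.16 in WT (adjusted p = 0.0606) and -0.61 ± 0.16 in E2F3 LQ (adjusted p = 0.0764). The values of the next genes passed in neither genotype. Ppm1d was at 0.80 ± 0.22 and 0.63 ± 0.22, Trp53inp1 at 0.62 ± 0.15 and 0.49 ± 0.15, and Rrm2b at 0.45 ± 0.15 and 0.38 ± 0.15 in WT and E2F3 LQ, all with the same sign. Apaf1 was at 0.44 ± 0.17 and 0.16 ± 0.17 and Plk3 at -0.75 ± 0.29 and -0.65 ± 0.29. The larger value was in E2F3 LQ for Aen, at 0.64 ± 0.18 against 0.34 ± 0.18 in WT, and for Tob1, at -0.68 ± 0.18 against -0.083 ± 0.18. Sesn2 was close in both, at 0.34 ± 0.16 in WT and 0.40 ± 0.16 in E2F3 LQ. With array medians subtracted, the member called in E2F3 LQ cells was Tnfrsf10b, lower at -0.87 (adjusted p = 0.045), in place of Ei24.

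Whether the response differed between the genotypes was tested as an interaction, and limma called 0 of the 28 members and 0.00% of all features. At an unadjusted p under 0.05, 0 members were higher and 1 was lower, Tob1, at -0.59 ± 0.25 (adjusted p = 1), against 0.813% and 0.715% of all features. The interaction was -0.64 ± 0.50 for Mdm2, with a 95% interval from -1.82 to 0.54, and -0.41 ± 0.44 for Cdkn1a, with an interval from -1.44 to 0.61. These intervals leave room for differences in either direction. Without the array of proliferating E2F3 LQ clone 4, 1 member was called, Dram1 at -1.39 ± 0.24 (adjusted p = 0.0453), along with 145 of all features, and with both arrays of clone 4 left out 0 members and 96 of all features were called. The interaction of Mdm2 ran from -1.23 to -0.049 with 1 array left out.

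In proliferating cells limma called 0 of the 28 members and 0.00% of all features between E2F3 LQ and WT. At an unadjusted p under 0.05, 1 member was higher, Tob1, against 1.13% of all features, and 0 were lower, against 1.70%. Tob1 was at 7.16 and 7.15 in WT clones 1 and 16 and at 7.95 and 7.56 in E2F3 LQ clones 2 and 4. Both mutant clones were above both WT clones, by 0.60 ± 0.18 (adjusted p = 0.999). Both E2F3 LQ clones also lay above both WT clones for Apaf1, Ccng1 and Fas, which makes 4 members against 9.54% of all features, and below them for Rrm2b, which makes 1 against 12.3%. For Apaf1, Ccng1 and Fas the gap was slight. Clone 4 was at 9.3184, 12.0745 and 9.191, and the higher WT clone at 9.2929, 12.0689 and 9.1822. By quantitative RT-PCR, a measurement separate from these arrays, the study reported higher MDM2 in proliferating E2F3 LQ MEFs than in WT. On the arrays, limma put the difference of Mdm2 at 0.47 ± 0.36 (adjusted p = 0.999, 95% interval from -0.37 to 1.30). That of Cdkn1a was 0.45 ± 0.31 (adjusted p = 0.999, interval from -0.27 to 1.18).

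These means hid a split between the mutant clones. Proliferating clone 2 exceeded the WT mean by 1.52 for Dram1, 1.32 for Fas, 1.06 for Mdm2, 0.94 for Plk2, 0.88 for Cdkn1a and 0.80 for Tob1. Clone 4 differed from it by -0.00, 0.05, -0.13, -0.23, 0.03 and 0.41 for the same genes. The rise in clone 2 did not extend to the whole list: its difference from the WT mean was -0.67 for Sesn1, -0.49 for Zmat3, -0.44 for Aen and -0.38 for Bbc3, and its median over the 28 members was 0.05, as was that of clone 4. By function, clone 2 exceeded the WT mean for 5 of the 6 arrest genes (median 0.52) and 2 of the 5 repair genes (median -0.15). It did so for 41.5% of all features (median -0.07). Clone 4 exceeded the WT mean for 3 arrest genes (median -0.02) and 3 repair genes (median 0.11), against 52.5% of all features. The median difference between the mutant clones was 0.42 over the members, against 0.15 between the WT clones, and 4 members differed by more than 1 between the mutant clones, against 0 in each of the other groups. Over all features these medians were 0.32 and 0.22, and 854 features differed by more than 1 between the proliferating mutant clones, against 44 to 174 in the other groups. With the clone 4 array left out, where the spread of the remaining clone 2 array was taken from the other groups, limma called 3 members higher (Dram1, Fas and Mdm2) and 405 of all features. Without clone 2 it called 0 members. Of the 20 tested genes that act on p53, 8 were above the WT mean in proliferating clone 2, against 41.5% of all features, with a median of -0.05. Among them Pml, Daxx and Cdkn2a were at 1.29, 0.99 and 0.77, and at -0.21, -0.17 and 0.36 in clone 4. Cell type markers moved as far on the proliferating clone 2 array, and in the median the macrophage markers moved further on that of clone 4. Relative to the WT mean, the fibroblast markers Lum and Dcn were at 1.95 and 1.56 and Col1a2 at -1.07 in clone 2, where 3 of 10 fibroblast markers were above 0. The macrophage markers Adgre1 and Cd14 were at 1.65 and 1.45 and Mrc1 at -2.49, with 3 of 10 above 0, against 0 of 10 in clone 4. In clone 4 Adgre1, Cd14 and Mrc1 were at -1.24, -1.54 and -2.23. The median of the 10 macrophage markers was -0.80 in clone 2 and -2.20 in clone 4. The part of the cell type markers in the values of the p53 targets was not tested.

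**Figure D4:**
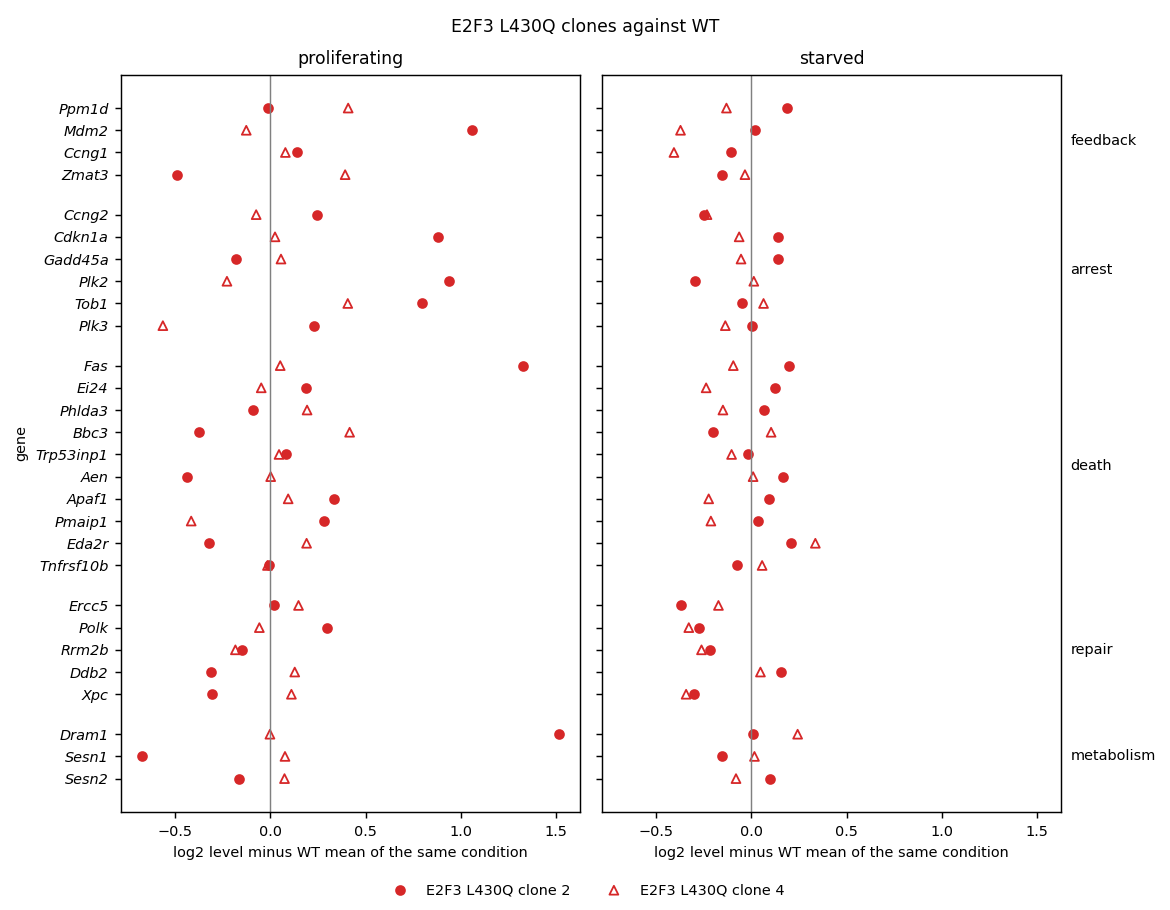
Log2 level of each p53 target gene in E2F3 LQ clones 2 (filled circles) and 4 (open triangles) minus the WT mean of the same condition, proliferating at left and starved at right. Clone 2 reaches 1.52 for Dram1 and 1.32 for Fas while proliferating, and after starvation the farthest point is Ccng1 in clone 4, at -0.41.

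In starved cells limma again called 0 of the 28 members and 0.00% of all features between the genotypes, and at an unadjusted p under 0.05 0 members were higher or lower, against 0.959% and 1.25% of all features. The excess of clone 2 was not seen there: Dram1 was 0.01 and Fas 0.20 over the WT mean in starved clone 2. Mdm2 differed between the genotypes by -0.17 ± 0.36 (adjusted p = 1; 95% interval from -1.01 to 0.66) and Cdkn1a by 0.04 ± 0.31 (adjusted p = 1; interval from -0.69 to 0.77). Both starved E2F3 LQ clones lay below both WT clones for 7 members (Ccng1, Ccng2, Ercc5, Polk, Rrm2b, Trp53inp1 and Xpc), which is 25.0% of the members against 16.9% of all features. Of those, 4 were among the 5 repair genes, to be read beside the same 16.9% of all features. For Ercc5 the gap was slight, with starved E2F3 LQ clone 4 at 9.9687 and starved WT clone 16 at 9.9692. The repair genes had a median of -0.27 in clone 2 and -0.26 in clone 4 relative to the WT mean. Both mutant clones lay above both WT clones for 1 member, Eda2r, and for 1734 of all features. None of these differences passed a test.

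Genes that act on p53 were read beside its targets. Of 24 such genes 20 were tested, and after starvation 2 were called higher and 2 lower over both genotypes, close to the 10.9% and 11.5% of all features. Cdkn2a, which encodes p16Ink4a and p19Arf, was at 7.32, 6.85, 7.85 and 7.44 in proliferating clones 1, 16, 2 and 4 and at 10.87, 10.54, 10.45 and 10.74 when starved. Every starved array was far above every proliferating one, and the log2 fold change was 3.28 ± 0.17, a 9.74-fold rise (adjusted p = 0.000358). It was 3.62 ± 0.24 in WT (adjusted p = 0.00257) and 2.95 ± 0.24 in E2F3 LQ (adjusted p = 0.00488), the only called gene of this list in either genotype alone. Which of the Cdkn2a products the probes read was not examined. Trp63, a relative of p53, was detected on the 4 starved arrays and on none of the proliferating ones, and was at least 1.49-fold higher after starvation (adjusted p = 0.011). Usp7, a deubiquitinase that stabilizes Mdm2 and p53, fell by 0.72 on the log2 scale (SE 0.14, adjusted p = 0.0111), and the acetyltransferase Ep300, a p53 coactivator, fell by 0.40 (SE 0.10, adjusted p = 0.0304). Between the genotypes 0 of these genes were called in either condition.

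A list of 30 further p53 targets had 19 tested genes, of which 5 were called higher and 2 lower after starvation over both genotypes, against 10.9% and 11.5% of all features. Rprm, which encodes the arrest protein Reprimo, rose by 1.78 ± 0.21 (adjusted p = 0.00252). Pltp, a phospholipid transfer protein, rose by 1.72 ± 0.15 (adjusted p = 0.00104), and Pidd1, a death domain protein that activates caspase-2, by 1.13 ± 0.15 (adjusted p = 0.00384). The epoxide hydrolase Ephx1 rose by 0.67 ± 0.12 (adjusted p = 0.00993). Of the 2 that fell, named after their values were seen, Thbs1, the matrix protein thrombospondin, was at -1.15 and the peroxidase Gpx1 at -0.54. In WT cells 4 of these genes were called higher (3.87% of all features), with Rprm at 1.81, Pltp at 1.63, Pidd1 at 1.25 and Ephx1 at 0.76, and in E2F3 LQ cells 3 (2.46%), with Pltp at 1.81, Rprm at 1.76 and Pidd1 at 1.00. The list's median over both genotypes was 0.31, against 0.48 for the 28 members.

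The members with several probes show how far a value rests on the probe. Of the 28 members 17 had more than 1 passing probe. For 10 of them all probes lay on the same side of 0 in the response to starvation, among them Mdm2, Cdkn1a, Fas, Ppm1d, Phlda3, Ercc5 and Trp53inp1. For 7 they lay on both sides: Aen, Apaf1, Bbc3, Ccng1, Ddb2, Sesn2 and Tnfrsf10b. Fas rose with both probes, by 1.50 ± 0.26 and 1.25 ± 0.29, and so did Ercc5, by 0.95 ± 0.13 and 0.76 ± 0.13. With the mean of a gene's probes in place of the brightest, 11 members were called, 10 higher and 1 lower.

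**Figure D5:**
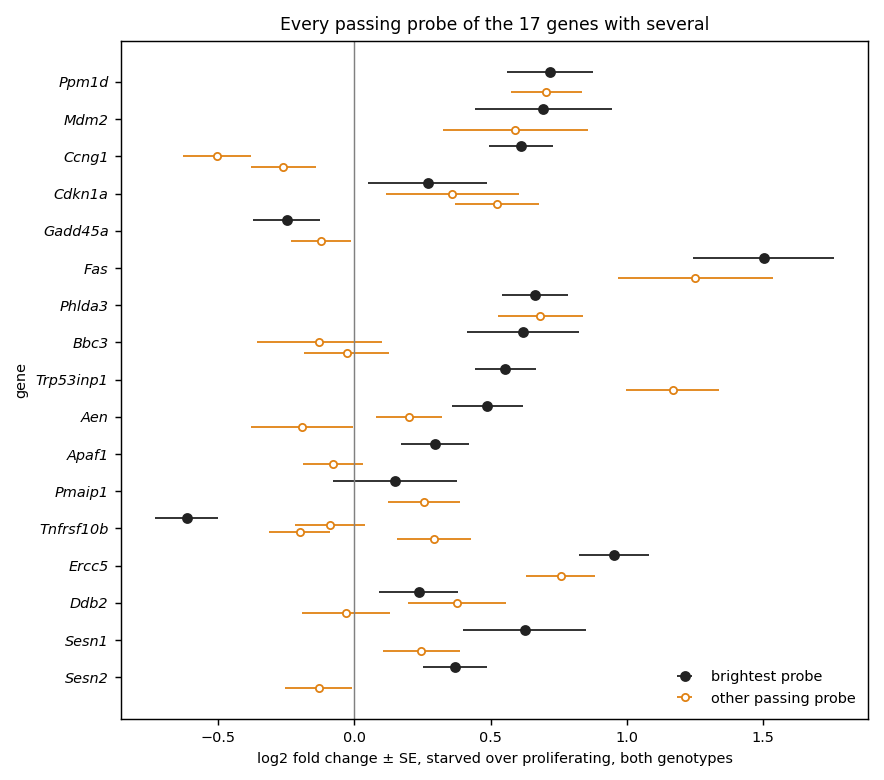
Log2 fold change, starved over proliferating in both genotypes, of every passing probe of the 17 p53 target genes with several, with its SE, from a fit of all passing probes. Filled points are the brightest probe of a gene and open points the others. The probes of Ccng1 run from -0.50 to 0.61, while both Fas probes lie above 1.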

How the data were processed

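RNA of 4 mouse embryonic fibroblast clones, each proliferating and starved, was hybridised to 8 single-colour Illumina bead arrays. The deposited intensity values and detection p-values were exported by the authors from GenomeStudio without normalization, and its version and settings were not stated by the sources read. The authors' deposited normalized intensity table, background-subtracted and on a linear scale with values below 0, was used only as an alternative. Background correction, quantile normalization and log2 transformation were done with neqc of limma 3.58.1 (offset 16) in R 4.3.3. Of 25697 probes, 23978 had 1 gene symbol in the platform annotation and 1719 none. Probes with a detection p-value under 0.05 on at least 2 arrays passed (13666), and the brightest represented each gene, which gave 10214 features, 9430 of them named. Means of the 4 groups were fitted with lmFit and eBayes, and p-values were adjusted by Benjamini-Hochberg over all features, separately for each of 6 contrasts. The scripts were tested on simulated data. A correction for the clone used statmod 1.5.0 where it was a random effect. Alternatives covered background correction, normalization, the detection filter, the choice of probe, a trend in the variance, the clone or replicate number as a block, the arrays in the fit, the methods' t-test, the threshold, and each array or clone left out. Subtracting array medians and fitting every probe were added after seeing the data. The clone pairs the conditions, since the labels give the same clone in both, and deviations from the group means correlated at 0.0906 in WT and 0.29 in E2F3 LQ clones.

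Every member with a passing probe was named with its levels, with its fold change where its unadjusted p was under 0.05 (Mdm2 and Cdkn1a in every contrast), and of the other lists up to 4 called genes with the smallest p. The members and lists were chosen with earlier results of these data known. Sequences came from RefSeq windows on GRCm38.p6. Figures were drawn with Python 3.11.15 and matplotlib 3.10.9. The number of arrays, 2 in each group, limits the precision.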

Additional observations from a re-analysis of the deposited data

Results flagged for a closer look

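The genotype difference of Ccng1 lay on opposite sides of 0 in the 2 conditions. E2F3 LQ clones 2 and 4 were 0.14 and 0.08 above the WT mean while proliferating and at -0.11 and -0.41 relative to it when starved. The change of the difference was -0.37 and did not pass the interaction test (limma, adjusted p = 1). These are values of the brightest Ccng1 probe, and its other 2 passing probes responded to starvation in the opposite direction. While proliferating, E2F3 LQ clone 4 was at 12.0745 and WT clone 1 at 12.0689.

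The starvation response of Eda2r was negative in both WT clones, at -0.16 and -0.11 in clones 1 and 16, and positive in both E2F3 LQ clones, at 0.39 and 0.01 in clones 2 and 4. The difference of 0.34 did not pass the interaction test (limma, adjusted p = 1), and Eda2r was not detected on the starved WT arrays.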

How the results depend on the processing

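After starvation in both genotypes, the count of p53 targets called was 14 in the reported fit and 10 to 20 under every alternative that kept all arrays except subtraction of the array medians (7). All features called numbered 2288, 3882 by the methods' unadjusted t-test and 3787 by limma's unadjusted p. Their split was 1116 higher and 1172 lower, 773 and 1123 with median scaling, and 538 and 1479 with array medians subtracted. With array medians subtracted the split was 211 and 382 in WT (395 and 439 as reported) and 128 and 334 in E2F3 LQ (251 and 219). In WT cells the members called were 8, and 5 with median scaling, the authors' normalized values or the clone as a block, 3 with array medians subtracted, 0 by the methods' adjusted t-test and 15 unadjusted. All features were 834, with 1718 from the 4 WT arrays alone, 1 by the t-test, 2216 by the unadjusted t-test, 1552 at an adjusted p under 0.1 and 2684 unadjusted. In E2F3 LQ cells the members called were 1, and 5 without background correction, 3 with normexp at offset 50, 2 with detection on all 8 arrays, an intensity trend or the clone as a random effect, 0 with the authors' values, no detection filter, the 4 arrays alone, the clone as a block or the t-test, 4 by the unadjusted t-test, 7 at an adjusted p under 0.1 and 13 unadjusted. All features were 470, with 0 from the 4 arrays alone or by the t-test, 715 with the clone as a random effect, 1268 by the unadjusted t-test, 1098 at 0.1 and 2446 unadjusted. Between the genotypes 0 members were called; by the unadjusted t-test and unadjusted limma 1 and 1 were while proliferating, 2 and 0 when starved, and 1 in the unadjusted interaction. All features numbered 215, 289 and, at 0.1, 1 while proliferating, 555, 226 and, by the adjusted t-test, 2 when starved, and 156 in the unadjusted interaction.

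With the mean of its probes Ccng1 was at -0.050 in both genotypes and -0.12 in E2F3 LQ, and with array medians subtracted Cdkn1a was at -0.052 in E2F3 LQ. With 1 array left out, members called ran from 5 to 20 in both genotypes, 0 to 13 in WT, 0 to 9 in E2F3 LQ, 0 to 3 between proliferating genotypes, 0 to 0 between starved ones and 0 to 1 in the interaction, and all features from 941 to 3069, 0 to 1843, 22 to 1240, 0 to 405, 0 to 0 and 0 to 145. With a whole clone left out the members ran from 0 to 16, 0 to 11, 0 to 2, 0 to 3, 0 to 0 and 0 to 0, and all features from 4 to 2385, 0 to 1718, 0 to 452, 0 to 433, 0 to 0 and 0 to 96, with 121 in both genotypes without WT clone 16. With 1 array left out Mdm2 ran from -0.22 to 0.97 in E2F3 LQ, -0.13 to 1.06 between proliferating and -0.37 to 0.021 between starved genotypes, and Cdkn1a from -0.36 to 0.49 in E2F3 LQ, -0.063 to 0.14 between starved genotypes and -0.84 to 0.013 in the interaction. Over both genotypes Mdm2 ran from 0.40 to 0.99 and Cdkn1a from 0.055 to 0.48, with no change of sign. With a whole clone left out Mdm2 ran from -0.022 to 0.77 and Cdkn1a from -0.26 to 0.39 in E2F3 LQ. Their genotype differences within each condition then ran over the same ranges as with 1 array left out, which for Cdkn1a between proliferating genotypes was 0.025 to 0.88. The cause of these changes was not tested.

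Replicate numbers shared between the genotypes gave only 2 pairs, with correlations of 0.47 while proliferating and 0.18 when starved, and as a block they gave 17 members in both genotypes. Only 2 arrays in each group limit what can be called.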
